A study of Rattus norvegicus with 12 samples.

Results

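Tenascin C, fibronectin and the matricellular genes of whole rat lung were read out in 3 groups of rats. The genes were chosen by symbol from a list of 10, Tnc, Tnxb, Fn1, Postn, Thbs1, Thbs2, Sparc, Sparcl1, Vcan and Lum. Of these, 9 matched 1 row each among 32883 genes in the count table, and all 9 passed the filter on low counts that left 15257 genes. Tnxb (tenascin XB) had no matching row and was not analysed here. RNA from whole lung was sequenced in 12 libraries, 4 per group, all from rats labelled wild type. MCT-Fer-1 rats received monocrotaline, an alkaloid toxic to lung vessels whose injury serves as a model of pulmonary hypertension, and ferrostatin-1, a compound that inhibits ferroptosis, the death of cells through lipid peroxidation. MCT-vehicle rats received monocrotaline and the vehicle of ferrostatin-1. Control rats carry the label Control, with no vehicle stated. Both monocrotaline groups were dosed with ferrostatin-1 or vehicle over 10 days, and every sample carries a time of 25 days whose starting point is not stated. The effects of monocrotaline and of vehicle dosing therefore cannot be told apart in comparisons with Control. The sources used here do not give strain, sex or age. They do not say whether the 12 libraries stand for 12 rats either, so a p-value speaks only for the spread among these libraries.

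Matricellular proteins are secreted into the extracellular matrix, where they tune how cells adhere, migrate and receive growth factors more than they bear load. Tenascin C is sparse in most adult tissue and reappears where tissue is remodelled, including the walls of pulmonary arteries in monocrotaline-injured rats. Fibronectin assembles into fibrils that carry cells, collagen and growth factors, and many of its partners are made by fibroblasts, smooth muscle cells and macrophages. In RNA from whole lung, fewer cells of a type and less RNA per cell cannot be told apart.

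Library depth was 11601929 to 70627239 counts, and the detection floor of 3 counts stood at 0.0420 to 0.259 CPM. CPM are read counts per 1000000 of TMM-scaled library size. They are not divided by gene length, and levels of different genes are therefore not compared. Lung identity was plain in every library, with alveolar epithelial markers such as Sftpc and Ager summing to 21828 to 34337 CPM in MCT-Fer-1, 21421 to 33513 CPM in MCT-vehicle and 32825 to 35092 CPM in Control. Heart-muscle markers summed to 406 CPM in MCT-vehicle 2 and 259 CPM in Control 4, against 15.9 to 78.5 CPM in the other 10 libraries. Counts of called genes are also given without them where they changed. MCT-Fer-1 4, the deepest library, was the lowest of its group for all 9 genes, and MCT-Fer-1 2 was the highest of its group for 7.

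The sequences below are shown because 4 of these genes rose in MCT-vehicle lungs (Tnc, Postn, Vcan and Lum) and the last did not (Thbs1). They run 5′ to 3′ from 250 bases before to 50 bases after the gene start, as RefSeq gives them on GRCr8. RefSeq promoters were found for 7 of the 9 genes, with none used for Fn1 and Thbs2. Positions are chr5:82476082-82476381 on the minus strand for Tnc, chr2:140677811-140678110 on the plus strand for Postn, chr2:22595906-22596205 on the minus strand for Vcan (the first of its 2 entries), chr7:34245456-34245755 on the plus strand for Lum and chr3:125510000-125510299 on the plus strand for Thbs1. Capitals mark, on either strand, the TATA box letters TATAAA, the CCAAT box letters CCAAT, the SP1 letters GGGCGG, the AP-1 letters TGANTCA and the TEAD letters GGAATG.
Tnc: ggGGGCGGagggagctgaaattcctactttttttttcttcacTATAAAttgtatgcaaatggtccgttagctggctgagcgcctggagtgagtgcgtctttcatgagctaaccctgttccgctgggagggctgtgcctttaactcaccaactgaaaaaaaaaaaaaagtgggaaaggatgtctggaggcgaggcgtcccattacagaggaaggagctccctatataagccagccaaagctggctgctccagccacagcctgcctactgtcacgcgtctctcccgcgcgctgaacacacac
Postn: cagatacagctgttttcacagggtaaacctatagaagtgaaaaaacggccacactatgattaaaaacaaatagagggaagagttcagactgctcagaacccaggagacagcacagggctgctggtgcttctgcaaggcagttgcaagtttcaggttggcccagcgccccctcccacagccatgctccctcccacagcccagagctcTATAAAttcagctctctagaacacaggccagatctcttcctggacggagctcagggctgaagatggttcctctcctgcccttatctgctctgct
Vcan: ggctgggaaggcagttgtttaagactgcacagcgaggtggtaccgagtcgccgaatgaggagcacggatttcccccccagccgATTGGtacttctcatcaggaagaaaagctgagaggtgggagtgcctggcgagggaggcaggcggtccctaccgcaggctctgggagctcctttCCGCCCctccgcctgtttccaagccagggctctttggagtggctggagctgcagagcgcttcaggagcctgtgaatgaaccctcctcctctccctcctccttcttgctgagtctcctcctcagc
Lum: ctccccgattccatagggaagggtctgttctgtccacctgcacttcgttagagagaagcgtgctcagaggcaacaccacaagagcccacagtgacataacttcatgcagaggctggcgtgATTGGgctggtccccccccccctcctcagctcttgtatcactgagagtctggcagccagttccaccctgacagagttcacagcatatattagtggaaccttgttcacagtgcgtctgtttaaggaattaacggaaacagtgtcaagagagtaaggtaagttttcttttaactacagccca
Thbs1: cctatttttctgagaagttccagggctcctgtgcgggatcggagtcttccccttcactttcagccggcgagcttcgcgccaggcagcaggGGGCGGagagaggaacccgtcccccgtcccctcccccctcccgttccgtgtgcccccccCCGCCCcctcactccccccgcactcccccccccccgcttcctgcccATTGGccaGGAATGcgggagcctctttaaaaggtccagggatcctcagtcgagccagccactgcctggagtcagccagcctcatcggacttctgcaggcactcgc
TATAAA was found in 14.2% of all 33469 RefSeq windows of this length. The label TATA box names these letters only, whatever their distance from the gene start. The windows of Tnc and Postn each held 1 match, starting at base 43 in Tnc and at base 207 in Postn, with the gene start after base 250. Those of Vcan, Lum and Thbs1 each held 1 CCAAT, found in 37.5% of windows, and Tnc, Vcan and Thbs1 held GGGCGG, found in 33.1%. GGAATG was present in Thbs1 and in 14.2% of windows, and TGANTCA was in none of the 5, against 7.33% of windows. No marked motif overlapped another in these windows. Only letters were matched, and no 1 of these motifs was shared by all 4 genes that rose.

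The comparison of MCT-vehicle with Control asked how the lungs of monocrotaline rats differed from those of controls. Thbs2, Fn1, Lum, Tnc, Vcan and Postn rose, between 1.47-fold for Postn and 5.65-fold for Thbs2, and none of the 9 genes fell. Sparc, Sparcl1 and Thbs1 did not pass the test. A gene was called at an adjusted p below 0.05 by edgeR's quasi-likelihood test with Benjamini-Hochberg adjustment over all genes tested, and 10.3% of all genes were called higher and 8.28% lower, beside 6 of 9 and 0 of 9 here. Groups did not overlap for 7 of the 9, all higher in MCT-vehicle (the 6 called and Sparc), where 11.5% of all genes were so placed. The median log2 fold change was 1.04 over the 9 genes and 0.016 over all genes tested. Without MCT-vehicle 2 and Control 4, 4 of the 9 genes were called higher and 0 lower. Over all genes, 969 were then called higher and 706 lower, against 1579 and 1264 with all 12 libraries.

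**Figure D1:**
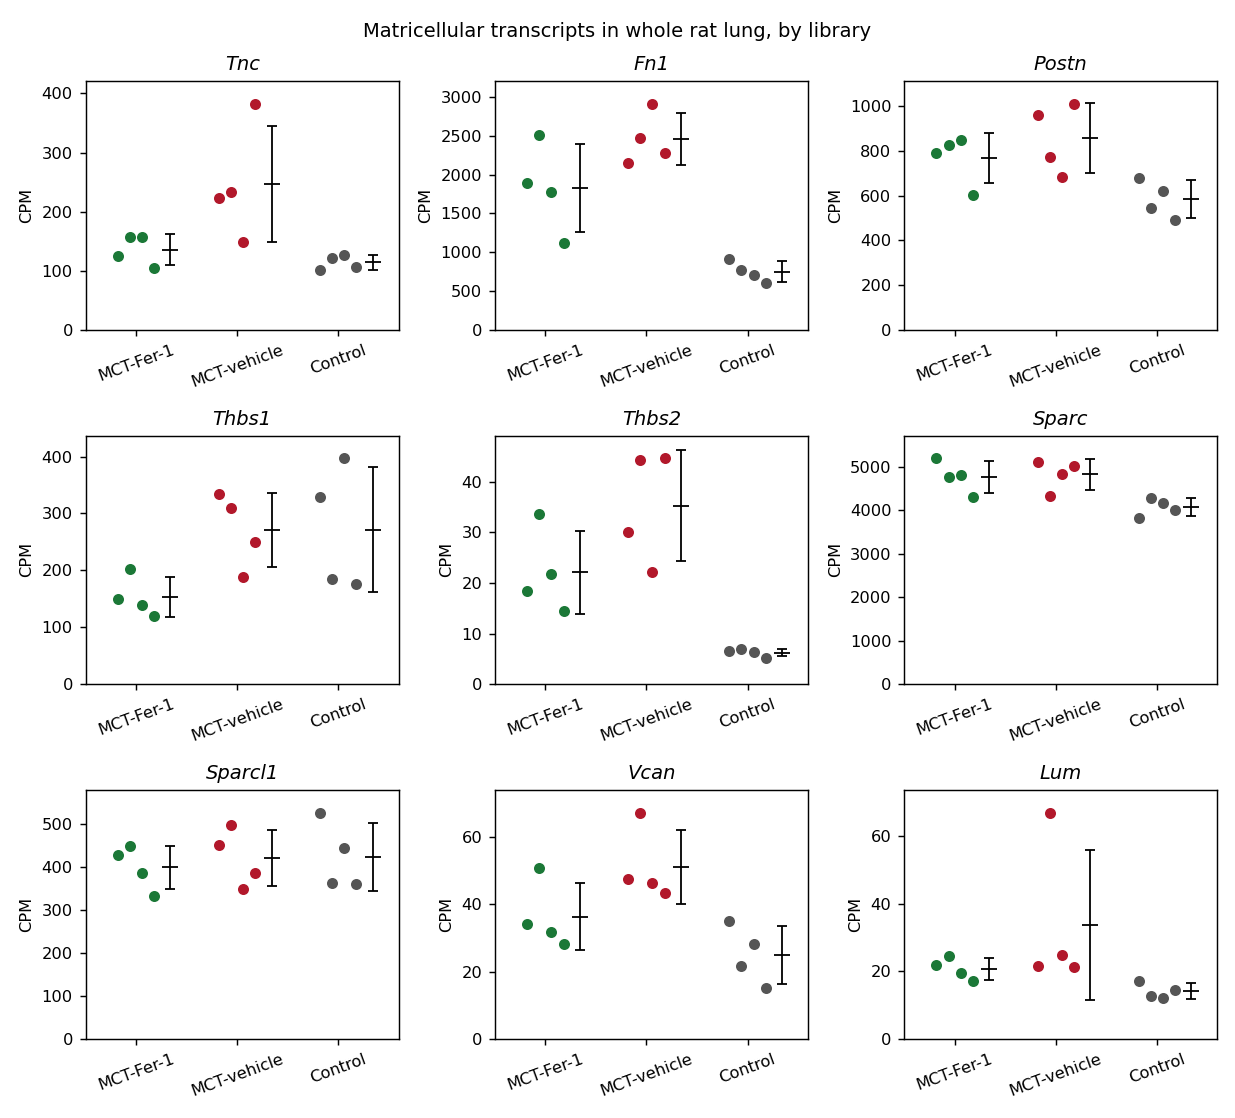
CPM of the 9 genes in each of the 12 libraries (points, in replicate order within a group) with the group mean and SD (bar, n = 4). Thbs2 and Fn1 lie above Control in all 8 monocrotaline libraries, and Lum in MCT-vehicle 2 stands at 67.0 CPM, far above the other 3 libraries of its group.

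Tnc (ENSRNOG00000058645) encodes tenascin C, a large glycoprotein of remodelling matrix that weakens adhesion to fibronectin. Its levels were 224, 234, 148 and 383 CPM in MCT-vehicle 1 to 4, against 102, 122, 127 and 106 CPM in Control 1 to 4. All 4 MCT-vehicle libraries lay above all 4 Control libraries, and MCT-vehicle 4 was the highest. The log2 fold change was 1.12 ± 0.24 (SE; edgeR's adjusted p = 0.00749), from 247 ± 98.2 CPM in MCT-vehicle and 114 ± 12.2 CPM in Control (SD, n = 4 each).

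Fn1 (ENSRNOG00000014288) encodes fibronectin, the adhesive glycoprotein on which integrins grip the provisional matrix. It stood at 2149, 2478, 2916 and 2279 CPM in MCT-vehicle, against 916, 775, 706 and 603 CPM in Control. Every MCT-vehicle library was above 916 CPM, the highest Control value, and the groups did not overlap. Its log2 fold change was 1.71 ± 0.21 (SE; edgeR's adjusted p = 2.60e-04).

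Postn (ENSRNOG00000012660) encodes periostin, a TGF-beta-induced protein that binds integrins and promotes collagen crosslinking. MCT-vehicle libraries had 963, 773, 684 and 1012 CPM, against 679, 547, 622 and 489.5 CPM in Control libraries. The lowest MCT-vehicle value was only slightly above the highest Control value. The rise was the smallest of the 6 called, with a log2 fold change of 0.55 ± 0.15 (SE; edgeR's adjusted p = 0.0207). The call was lost without MCT-vehicle 1 (adjusted p = 0.0550), MCT-vehicle 4 (0.0598), Control 2 (0.0600) or Control 4 (0.0657), and without MCT-vehicle 2 and Control 4 together (0.0702), all by edgeR. Over all 21 alternatives its adjusted p ran from 0.00247 to 0.0702.

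The thrombospondins parted, as Thbs2 rose and Thbs1 did not pass the test. Thbs1 (ENSRNOG00000045829) encodes thrombospondin 1, which activates latent TGF-beta and restrains vessel growth through CD36 and CD47, and Thbs2 (ENSRNOG00000010529) its close relative thrombospondin 2, which also curbs angiogenesis and shapes collagen fibrils. Thbs2 had 30.1, 44.2, 22.2 and 44.7 CPM in MCT-vehicle, against 6.60, 6.87, 6.32 and 5.21 CPM in Control. The highest Control library was under the lowest MCT-vehicle library, and the log2 fold change of 2.50 ± 0.28 (SE; edgeR's adjusted p = 1.70e-04) was the largest of the 9 genes. Thbs1 had 334, 309, 189 and 251 CPM in MCT-vehicle, against 329, 185, 397 and 176 CPM in Control. Its Control libraries were spread widely, with replicates 1 and 3 high and replicates 2 and 4 low, and their range enclosed all 4 MCT-vehicle values. The log2 fold change was -0.0061 ± 0.28, with a 95% interval of -0.61 to 0.60 (edgeR adjusted p = 0.992). This interval leaves room for a change of 0.6 log2 units in either direction.

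Because library size cancels in it, the ratio of Thbs1 to Thbs2 counts within a library needs no scaling. It was 8.14, 6.03, 6.38 and 8.30 in MCT-Fer-1, 11.1, 6.98, 8.48 and 5.61 in MCT-vehicle and 49.9, 26.9, 62.8 and 33.8 in Control. All 8 monocrotaline libraries lay below all 4 Control libraries, while the 2 monocrotaline groups overlapped. On the log2 scale the ratio averaged 2.84 ± 0.24 in MCT-Fer-1, 2.96 ± 0.42 in MCT-vehicle and 5.36 ± 0.55 in Control (SD, n = 4 each). These ratios are a description without a test, and they carry the lengths of both genes.

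**Figure D2:**
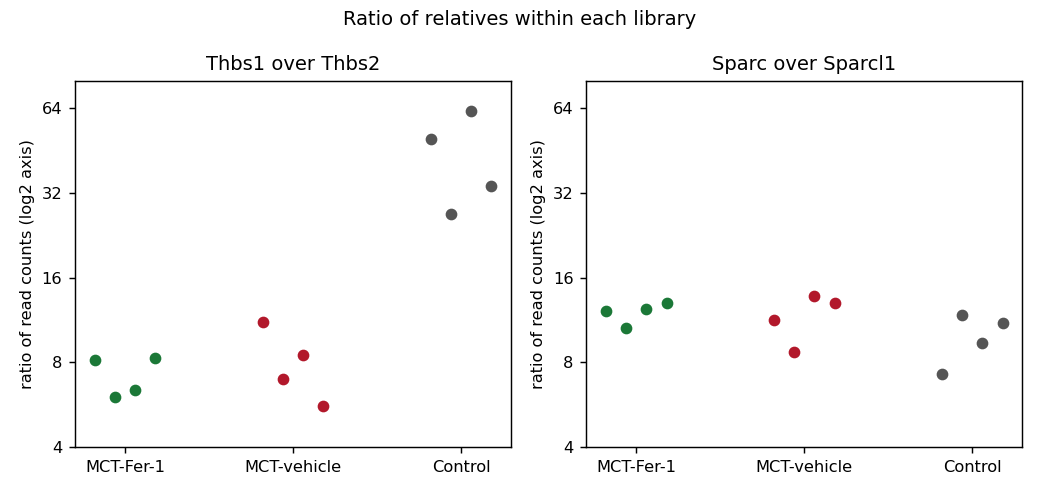
Ratio of read counts of Thbs1 to Thbs2 (left) and of Sparc to Sparcl1 (right) in each of the 12 libraries, on a log2 axis. The Thbs1 ratio is between 5.61 and 11.1 in the monocrotaline groups and at least 26.9 in Control, and the Sparc ratio overlaps between the groups.

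Neither gene of the SPARC pair passed the edgeR test. Sparc (ENSRNOG00000012840) encodes a collagen-binding, counter-adhesive glycoprotein, and Sparcl1 (ENSRNOG00000015093), also called hevin, a relative that shares its collagen-binding module. Sparc ranged over 4322 to 5116 CPM in MCT-vehicle and 3817 to 4276 CPM in Control. These ranges did not overlap, yet the log2 fold change was only 0.25 ± 0.086 (SE; edgeR's adjusted p = 0.0635). DESeq2 called it higher (DESeq2 adjusted p = 0.00977), where it called 12.4% of all genes higher, as did edgeR without MCT-vehicle 2 (adjusted p = 0.0389), within a span of 0.00977 to 0.138 over the 21 alternatives. Sparcl1 ranged over 350.1 to 498 CPM in MCT-vehicle and 361 to 527 CPM in Control. Its log2 fold change was -0.0079 ± 0.14 with a 95% interval of -0.32 to 0.31 (edgeR adjusted p = 0.977). The ratio of Sparc to Sparcl1 counts was 12.1, 10.6, 12.4 and 13.0 in MCT-Fer-1, 11.3, 8.68, 13.8 and 13.0 in MCT-vehicle and 7.24, 11.8, 9.38 and 11.1 in Control, with overlap between all groups.

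Among proteoglycans, Vcan (ENSRNOG00000029212) encodes versican, a large chondroitin sulphate proteoglycan that binds hyaluronan in provisional matrix. Vcan had 47.7, 67.4, 46.5 and 43.3 CPM in MCT-vehicle, against 34.96, 21.5, 28.1 and 14.97 CPM in Control. The groups did not overlap, with MCT-vehicle 2 the highest library and Control 4 the lowest. The log2 fold change of 1.04 ± 0.26 (SE; edgeR's adjusted p = 0.0152) became 0.70 without those 2 libraries, and the call was lost (edgeR adjusted p = 0.0670, the highest of the 21 alternatives, whose lowest was 4.24e-04).

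Lum (ENSRNOG00000004610) encodes lumican, a small leucine-rich proteoglycan that spaces collagen fibrils. It stood at 21.5, 67.0, 24.8 and 21.3 CPM in MCT-vehicle, against 17.2, 12.7, 11.99 and 14.3 CPM in Control. All MCT-vehicle libraries were above all Control libraries, but MCT-vehicle 2 was more than 40 CPM above the rest of its group. The log2 fold change was 1.26 ± 0.34 (SE; edgeR's adjusted p = 0.0238) with all libraries and 0.68 without MCT-vehicle 2, where Lum was still called (edgeR adjusted p = 0.0102). The call was lost without Control 2 (adjusted p = 0.0611), Control 3 (0.0667) or Control 4 (0.0565), and when only the 2 groups were fitted (0.0642), all by edgeR. The adjusted p of Lum spanned 9.03e-04 to 0.0667 over the 21 alternatives.

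MCT-vehicle 2 was also high in the heart-muscle list and in the adipose and lymph node list. The tissue these transcripts came from was not tested. Of adipose and lymph node markers, 0 of 5 tested were called, and the 6 listed summed to 118 CPM in MCT-vehicle 2 and to 16.0 to 19.2 CPM in the other MCT-vehicle libraries, against 15.1 to 21.7 CPM in Control. Most of the sum in MCT-vehicle 2 was Cr2 (46.9 CPM), Ccl19 (39.5 CPM) and Cxcl13 (21.4 CPM), while Adipoq reached at most 4.63 CPM in MCT-vehicle. Of heart-muscle markers 0 of 6 tested were called, 1 was called higher without MCT-vehicle 2 and Control 4, and Nppa was at 0 in 10 libraries. The 6 fibroblast markers summed to 851 to 1059 CPM in MCT-vehicle, highest in MCT-vehicle 2, against 756 to 935 CPM in Control. Of the fibroblast markers, Dpt and Mfap5 were called higher in MCT-vehicle and 0 were called lower, and 1 of the 6 was called higher without MCT-vehicle 2 and Control 4. Col13a1 went the other way without a call, with a log2 fold change of -0.30 ± 0.12. Pdgfra, Tcf21 and Npnt lay at 0.14 ± 0.23, 0.077 ± 0.15 and 0.19 ± 0.089, also without a call. The part of these transcripts in the level of Lum was not tested, beyond its value without the library given above.

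**Figure D3:**
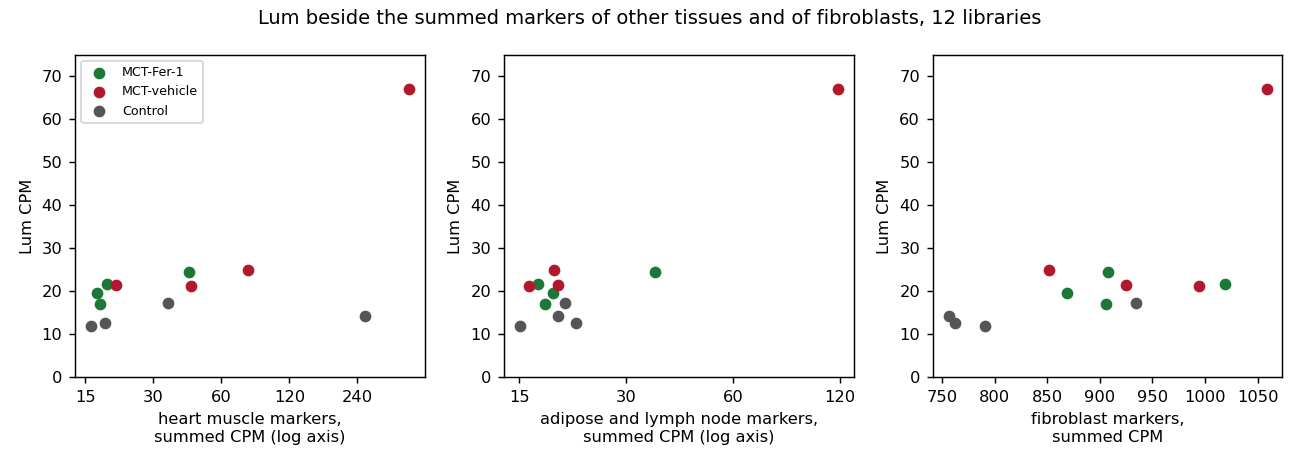
Lum CPM against the summed CPM of 7 heart-muscle markers, 6 adipose and lymph node markers (both on log axes) and 6 fibroblast markers, in the 12 libraries. MCT-vehicle 2 is the highest library on every axis, at 67.0 CPM of Lum, whereas Control 4, at 259 CPM of heart-muscle markers, has 14.3 CPM of Lum.

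Markers of other cell types also differed between these groups. The 6 macrophage markers summed to 1025 to 1625 CPM in MCT-vehicle, against 801 to 916 CPM in Control, 5 of 6 were called higher (3 without MCT-vehicle 2 and Control 4), and Marco was at 0 in all 4 Control libraries. Marco, 1 of the 5 called, averaged only 0.487 CPM in MCT-vehicle, and its lowest value there, 0.158 CPM, was at the detection floor. Smooth muscle markers summed to 1011 to 1691 CPM in MCT-vehicle, against 745 to 1319 CPM in Control, with 0 of 6 called, and pericyte markers to 304 to 441 CPM in MCT-vehicle, against 261 to 387 CPM in Control, with 1 of 5 called higher (Pdgfrb), and 0 without MCT-vehicle 2 and Control 4. Endothelial markers summed to 1782 to 2269 CPM in MCT-vehicle, against 2603 to 3069.6 CPM in Control, and 2 of 5 tested were called lower (Cdh5 and Erg). Platelet markers, which bear on Thbs1 because platelets store its product, summed to 39.5 to 52.4 CPM in MCT-vehicle and 28.5 to 41.0 CPM in Control, with 1 of 3 tested called higher (Pf4) and Gp1bb at 0 in all 12 libraries. Pf4, at 37.2 CPM on average in MCT-vehicle, carried most of that sum. Itga2b and Gp9, the others tested, went the other way, with log2 fold changes of -0.48 ± 0.18 and -0.59 ± 0.41 and no call. Mesothelial markers summed to 332 to 639 CPM in MCT-vehicle and 411 to 559 CPM in Control, and airway epithelial markers to 5934 to 8599 CPM in MCT-vehicle and 8213 to 9324 CPM in Control, each with 0 called. Scgb1a1 (6809 CPM on average in MCT-vehicle) carried most of the airway sum, with a log2 fold change of -0.29 ± 0.15. The others tested, Scgb3a2, Ccdc39 and Tekt1, lay above 0, at 0.19 ± 0.25, 0.25 ± 0.26 and 0.32 ± 0.24. Cartilage markers summed to 2.83 to 4.49 CPM in MCT-vehicle and 5.77 to 7.77 CPM in Control, with the 1 tested gene, Col11a2, called lower, but not without MCT-vehicle 2 and Control 4. Their part in the changes of the 9 genes was not tested.

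The comparison of MCT-Fer-1 with MCT-vehicle asked how ferrostatin-1 altered these genes in monocrotaline lungs. None of the 9 genes passed the edgeR test, as none of all genes tested did (0% called), whereas DESeq2 called 237 genes. At an unadjusted edgeR p below 0.05 stood 1835 genes; 6.17% of all genes were lower by that measure, beside 3 of the 9 (Tnc, Thbs1 and Thbs2). The 9 log2 fold changes were all below 0, as in 52.2% of all genes, although those of Sparc and Sparcl1 turned above 0 when some single libraries were left out. Their median was -0.50, beside -0.0093 over all genes. For none of the 9 did the groups separate fully, where 6.1% of all genes did. The comparison shares its MCT-vehicle libraries with the one before.

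**Figure D4:**
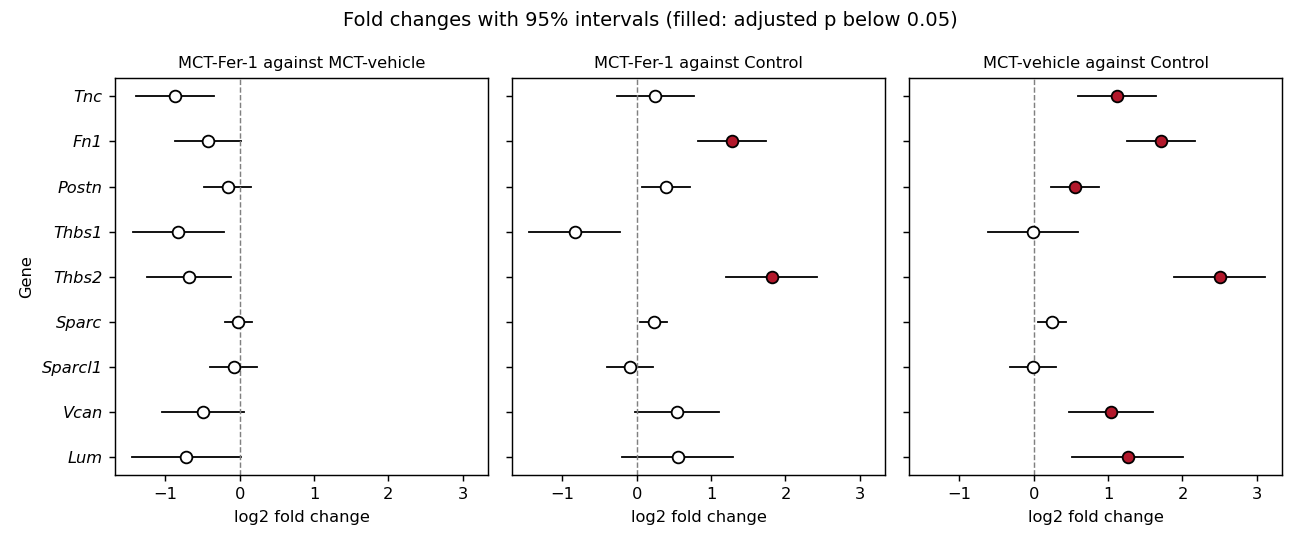
Log2 fold changes of the 9 genes (points) with their 95% intervals (lines, not adjusted for the number of genes) in 3 comparisons, filled where the edgeR adjusted p is below 0.05. Fn1 and Thbs2 are called in both monocrotaline groups against Control, and all points of MCT-Fer-1 against MCT-vehicle are open and at or below 0.

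Tnc had the smallest p of the 9. It stood at 124, 158, 157 and 104 CPM in MCT-Fer-1, against 224, 234, 148 and 383 CPM in MCT-vehicle. Only MCT-vehicle 3 fell within the MCT-Fer-1 range, which otherwise lay below MCT-vehicle. The log2 fold change was -0.87 ± 0.24 with a 95% interval of -1.39 to -0.35 (edgeR adjusted p = 0.220). The DESeq2 Wald test called it (DESeq2 adjusted p = 0.0193), where 0.919% of genes were called lower by DESeq2, and it called no other of the 9. Without MCT-vehicle 4, the highest library, the log2 fold change was -0.57, and without MCT-vehicle 3 it was -1.05 (edgeR adjusted p = 0.326 and 0.0550). Over the 21 alternatives the adjusted p of Tnc here lay between 0.0193 and 0.418.

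The thrombospondins had values of like size. Thbs1 had 150.2, 203, 139 and 120.2 CPM in MCT-Fer-1, against 334, 309, 189 and 251 CPM in MCT-vehicle, a log2 fold change of -0.82 ± 0.28 (95% interval -1.43 to -0.21; edgeR adjusted p = 0.292). Thbs2 had 18.4, 33.6, 21.8 and 14.5 CPM in MCT-Fer-1, against 30.1, 44.2, 22.2 and 44.7 CPM in MCT-vehicle, a log2 fold change of -0.68 ± 0.26 (95% interval -1.25 to -0.12; edgeR adjusted p = 0.335). In both genes MCT-Fer-1 2 was the only library of its group to reach into the MCT-vehicle range.

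Fn1 ran from 1119 to 2506 CPM in MCT-Fer-1, with 1119 CPM in MCT-Fer-1 4, against 2149 to 2916 CPM in MCT-vehicle. Its log2 fold change was -0.43 ± 0.21 (95% interval -0.87 to 0.018; edgeR adjusted p = 0.431) and -0.25 without MCT-Fer-1 4. Vcan ran over 28.2 to 51.0 CPM in MCT-Fer-1 and 43.3 to 67.4 CPM in MCT-vehicle, with a log2 fold change of -0.50 ± 0.25 (95% interval -1.05 to 0.052). The intervals of both genes reach 0 while leaving room for a drop of 0.8 log2 units. Lum had 21.7, 24.4, 19.5 and 17.0 CPM in MCT-Fer-1, and its log2 fold change of -0.71 ± 0.33 (95% interval -1.44 to 0.015) was -0.13 without MCT-vehicle 2.

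Postn, Sparc and Sparcl1 lay close to 0. Postn ran over 604 to 851 CPM in MCT-Fer-1 and 684 to 1012 CPM in MCT-vehicle, with a log2 fold change of -0.16 ± 0.15 (95% interval -0.48 to 0.16). Sparc had -0.018 ± 0.086 (95% interval -0.20 to 0.17), from 4765 ± 364 CPM in MCT-Fer-1 and 4824 ± 355 CPM in MCT-vehicle (SD, n = 4 each). Sparcl1 had -0.080 ± 0.14 (95% interval -0.39 to 0.23), from 399 ± 51.3 CPM in MCT-Fer-1 and 422 ± 65.9 CPM in MCT-vehicle (SD, n = 4 each). For Sparc the interval leaves no room for a change beyond about 0.2 log2 units in either direction. In 4 marker lists with more than 1 gene tested, every log2 fold change was below 0 and 0 were called. They were smooth muscle (6 genes, median -0.41), mesothelial (5 genes, -0.25), heart muscle (6 genes, -3.54) and adipose and lymph node (5 genes, -1.68). The 1 tested cartilage gene, Col11a2, was also below 0, at -0.10 ± 0.32. By contrast, 3 of 3 tested platelet markers (median 0.16), 4 of 5 endothelial (0.19) and 4 of 6 alveolar epithelial markers (0.049) were above 0, with 0 called. Smooth muscle markers summed to 828 to 1373 CPM in MCT-Fer-1 against 1011 to 1691 CPM in MCT-vehicle, and mesothelial markers to 325 to 439 CPM in MCT-Fer-1 against 332 to 639 CPM in MCT-vehicle. Macrophage markers summed to 1092 to 1221 CPM in MCT-Fer-1 against 1025 to 1625 CPM in MCT-vehicle, with 0 called. Fibroblast markers summed to 869 to 1019 CPM in MCT-Fer-1 against 851 to 1059 CPM in MCT-vehicle, and pericyte markers to 321 to 387 CPM in MCT-Fer-1 against 304 to 441 CPM in MCT-vehicle, with 0 called in each. Heart-muscle markers summed to 16.9 to 43.2 CPM in MCT-Fer-1 against 20.6 to 406 CPM in MCT-vehicle, and adipose and lymph node markers to 17.0 to 36.1 CPM in MCT-Fer-1 against 16.0 to 118 CPM in MCT-vehicle. Their part in these values was not tested.

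Against Control, which is shared with the first comparison, MCT-Fer-1 lungs had 2 of the 9 genes called higher, Fn1 and Thbs2, and 0 called lower, where 6.67% of all genes were called higher and 4.12% lower. The count was also 2 higher without MCT-vehicle 2 and Control 4, where 648 of all genes were called higher, against 1017 with all libraries. Fn1 averaged 1826 ± 569 CPM in MCT-Fer-1 and 749.9 ± 131 CPM in Control (SD, n = 4 each), a log2 fold change of 1.28 ± 0.21 (SE; edgeR's adjusted p = 0.00215). Thbs2 averaged 22.1 ± 8.26 CPM in MCT-Fer-1 and 6.25 ± 0.728 CPM in Control, a log2 fold change of 1.82 ± 0.28 (SE; edgeR's adjusted p = 0.00164). In both genes all 4 MCT-Fer-1 libraries exceeded all 4 Control libraries, against 10.6% of all genes. They also did so for Sparc (0.23 ± 0.086, edgeR adjusted p = 0.113). DESeq2 called Sparc higher (DESeq2 adjusted p = 0.0249), where it called 1309 of all genes higher, against 1017 by edgeR.

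Tnc, by contrast, averaged 135 ± 26.4 CPM in MCT-Fer-1 and 114 ± 12.2 CPM in Control, with overlap between the groups. Its log2 fold change was 0.25 ± 0.24 (95% interval -0.27 to 0.77; edgeR adjusted p = 0.572). Postn (0.39 ± 0.15, edgeR adjusted p = 0.114), Vcan (0.54 ± 0.26, adjusted p = 0.211) and Lum (0.55 ± 0.34, adjusted p = 0.353) lay above 0 without a call by edgeR. Postn was called by limma voom (limma adjusted p = 0.0426), which called 1340 of all genes higher here, against 1017 by edgeR. Lum was called in 2 of the 21 alternatives, 1 of them with MCT-vehicle 2 left out of the shared fit (log2 fold change 0.55, edgeR adjusted p = 0.0260). The adjusted p of Lum ran over 0.0260 to 0.546 in the 21 alternatives. Thbs1 was the only member with a value well below 0, at -0.83 ± 0.28 (95% interval -1.44 to -0.22; edgeR adjusted p = 0.0838), and DESeq2 called it lower (DESeq2 adjusted p = 0.0134), where it called 6.6% of all genes lower. Its adjusted p ran over 0.0134 to 0.212 in the 21 alternatives. The MCT-Fer-1 range of 120.2 to 203 CPM took in Control 2 and Control 4, while Control 1 and Control 3 lay far above it. Sparcl1 stood at -0.088 ± 0.14 (95% interval -0.40 to 0.23). Macrophage markers summed to 1092 to 1221 CPM in MCT-Fer-1 against 801 to 916 CPM in Control, with 4 of 6 called higher (2 without MCT-vehicle 2 and Control 4), and fibroblast markers to 869 to 1019 CPM in MCT-Fer-1 against 756 to 935 CPM in Control, with 2 of 6 called higher (1 without those 2 libraries). Cartilage markers had 1 of 1 tested called lower (0 without them), mesothelial markers 1 of 5 called lower (Krt19), platelet markers 1 of 3 called higher (Pf4), and heart-muscle markers 0 of 6 called (1 higher without them). Msln, Upk3b, Wt1 and Lrrn4 lay below 0 without a call. Of the fibroblast markers, Dpt and Npnt were those called, and Mfap5 lay at 0.21 ± 0.18. Col13a1 (-0.25 ± 0.12), Tcf21 (-0.12 ± 0.15) and Pdgfra (-0.0019 ± 0.23) lay below 0 without a call. Of the platelet markers, Gp9 lay at -0.43 ± 0.41 and Itga2b at 0.040 ± 0.18, neither called. Their part in these values was not tested.

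Set in order of their group means, 6 genes (Tnc, Fn1, Postn, Thbs2, Vcan and Lum) were highest in MCT-vehicle, next in MCT-Fer-1 and lowest in Control. These 6 are also the genes called higher in MCT-vehicle against Control, so their MCT-vehicle means were high by that choice. The share of all genes with this order was not counted. For Fn1 and Thbs2, MCT-Fer-1 passed the edgeR test against Control but not against MCT-vehicle. For Tnc, Postn, Vcan and Lum, neither pair of neighbours in that order passed the edgeR test, while MCT-vehicle against Control did. Sparc had the same order with both monocrotaline groups above Control and no call. Thbs1 had MCT-Fer-1 lowest and MCT-vehicle next to Control, and Sparcl1 had group means of 399, 422 and 424 CPM in MCT-Fer-1, MCT-vehicle and Control, with no pair called.

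The relatives of these genes were read from lists described here by counts and medians, without a test of the list. Their counts in MCT-vehicle against Control stand beside 10.3% of all genes called higher and 8.28% called lower. Of the tenascins and thrombospondins beside the 9, 3 of 5 listed were tested, 1 rose in MCT-vehicle against Control and 0 fell. Tnn, tenascin N, rose to 1.95 ± 1.40 CPM in MCT-vehicle, against 0.384 ± 0.226 CPM in Control near the floor (log2 fold change 2.32 ± 0.62, edgeR adjusted p = 0.0210), and had no call without MCT-vehicle 2 and Control 4. Comp, the cartilage oligomeric matrix protein, stood at 1.35 ± 0.49 (adjusted p = 0.0758) and Thbs3 at 0.067 ± 0.14 (adjusted p = 0.777), both by edgeR. Of the SPARC family, 5 of 6 were tested and 1 rose, Fstl1, a secreted follistatin-like glycoprotein, at 252 ± 28.2 CPM in MCT-vehicle and 185 ± 19.5 CPM in Control (log2 fold change 0.45 ± 0.10, edgeR adjusted p = 0.00827). Spock2, Spock3 and Smoc1 had log2 fold changes of 0.088 ± 0.22, -0.031 ± 0.51 and 0.61 ± 0.63 with no call. The SPARC family list had a median of 0.088.

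CCN and other matricellular genes, of which 11 of 12 were tested, had 2 higher and 0 lower in MCT-vehicle, with a median log2 fold change of 0.25. Fbln5, an elastic fibre organiser, rose to 175 ± 8.98 CPM in MCT-vehicle, against 89.2 ± 4.02 CPM in Control (log2 fold change 0.97 ± 0.076, edgeR adjusted p = 2.29e-05), and Tgfbi, a TGF-beta-induced integrin ligand, by 0.63 ± 0.13 (adjusted p = 0.00500). Ccn4, a CCN family protein, stood at 1.78 ± 0.73 and Mfge8, an integrin ligand of phagocytes, at 0.25 ± 0.11, neither called (edgeR adjusted p = 0.111 and 0.123). Of the small leucine-rich proteoglycans beside Lum, 5 of 10 were tested and 1 rose, Bgn (biglycan), at 959 ± 119 CPM in MCT-vehicle and 536 ± 29.0 CPM in Control (log2 fold change 0.84 ± 0.11, edgeR adjusted p = 4.18e-04). Fmod, Ogn and Prelp had -0.26 ± 0.47, -0.54 ± 0.51 and 0.16 ± 0.11 with no call, and the list's median was 0.070. Without MCT-vehicle 2 and Control 4 this list had 1 gene called lower as well.

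Hyaluronan genes, the partners of versican, had 1 higher and 1 lower of 9 tested and 14 listed, shares near those of all genes. Hmmr, a hyaluronan receptor also tied to the mitotic spindle, rose by 1.46 ± 0.22 on the log2 scale (edgeR adjusted p = 8.10e-04), and Lyve1, the hyaluronan receptor of lymphatic endothelium, fell to 189 ± 23.8 CPM in MCT-vehicle, against 401 ± 58.4 CPM in Control (-1.09 ± 0.12, adjusted p = 8.83e-05). The hyaluronan synthase gene Has2 stood at 2.22 ± 0.81 and Cd44, which encodes the main cell-surface receptor of hyaluronan, at 0.22 ± 0.11, neither called. Receptors of the 9 gene products had 5 higher and 0 lower of 13 tested (median 0.28), and 4 higher without MCT-vehicle 2 and Control 4. Stab1, a scavenger receptor that takes up SPARC, rose to 78.2 ± 17.5 CPM in MCT-vehicle, against 27.5 ± 6.69 CPM in Control (log2 fold change 1.50 ± 0.18, edgeR adjusted p = 2.37e-04). Lrp1, an endocytic receptor of thrombospondins, rose by 0.60 ± 0.11, and the integrin chain genes Itga8 by 0.51 ± 0.12 and Itgb5 by 0.33 ± 0.063 (edgeR adjusted p = 0.00310, 0.00949 and 0.00369).

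Fibrillar collagens bound by SPARC and lumican had 4 higher and 0 lower of 5 tested, with a median of 0.87, and 3 higher without MCT-vehicle 2 and Control 4. Col1a1 averaged 528 ± 57.3 CPM in MCT-Fer-1, 802 ± 198 CPM in MCT-vehicle and 378 ± 49.5 CPM in Control. Against Control it rose by 1.08 ± 0.15 in MCT-vehicle (edgeR adjusted p = 6.14e-04), Col3a1 by 0.87 ± 0.13, Col5a1 by 0.73 ± 0.10 and Col5a3 by 1.15 ± 0.25. TGF-beta genes had 6 higher and 2 lower of 12 tested (median 0.23), and 1 higher and 2 lower without those 2 libraries. The ligand gene Tgfb3 rose to 40.7 ± 8.26 CPM in MCT-vehicle, against 29.3 ± 1.91 CPM in Control (log2 fold change 0.47 ± 0.13, edgeR adjusted p = 0.0194). The inhibitory Smad7 and the co-receptor gene Tgfbr3 fell, with log2 fold changes of -0.56 ± 0.12 and -0.70 ± 0.16 (edgeR adjusted p = 0.00633 and 0.00995).

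Proteases that cleave tenascin, fibronectin or versican had 4 higher and 0 lower of 9 tested (median 0.53), and 4 higher without MCT-vehicle 2 and Control 4. Adamts4, a versican-cleaving protease, averaged 6.39 ± 2.28 CPM in MCT-Fer-1, 15.3 ± 6.15 CPM in MCT-vehicle and 2.18 ± 0.904 CPM in Control. It rose by 2.81 ± 0.36 on the log2 scale in MCT-vehicle against Control (edgeR adjusted p = 3.57e-04), the largest of the called genes of the 9 lists. The gelatinase gene Mmp2 rose by 1.14 ± 0.13, its membrane-bound activator Mmp14 by 1.04 ± 0.13 and Mmp19 by 1.01 ± 0.18 (edgeR adjusted p = 1.17e-04, 2.71e-04 and 0.00218).

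In MCT-Fer-1 against MCT-vehicle, 0 genes of these 9 lists were called. The list medians ran from -0.77 for the tenascins and thrombospondins to -0.022 for the TGF-beta genes, and all 5 collagens and all 3 tenascins and thrombospondins had values below 0. Adamts4 stood at -1.29 ± 0.34 (edgeR adjusted p = 0.206) and Col1a1 at -0.60 ± 0.15 (adjusted p = 0.196). In MCT-Fer-1 against Control, 1 of 5 SPARC relatives, 1 of 11 CCN and other matricellular genes, 1 of 5 small proteoglycans, 4 of 13 receptors, 2 of 5 collagens, 3 of 12 TGF-beta genes and 4 of 9 proteases were called higher, beside 6.67% of all genes. Of 9 hyaluronan genes 1 was higher and 1 lower, 1 TGF-beta gene was lower, and no tenascin or thrombospondin relative was called. Without MCT-vehicle 2 and Control 4 the SPARC relative, the 2 collagens and the 3 TGF-beta genes lost their calls, and 3 receptors and 3 proteases were called.

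**Figure D5:**
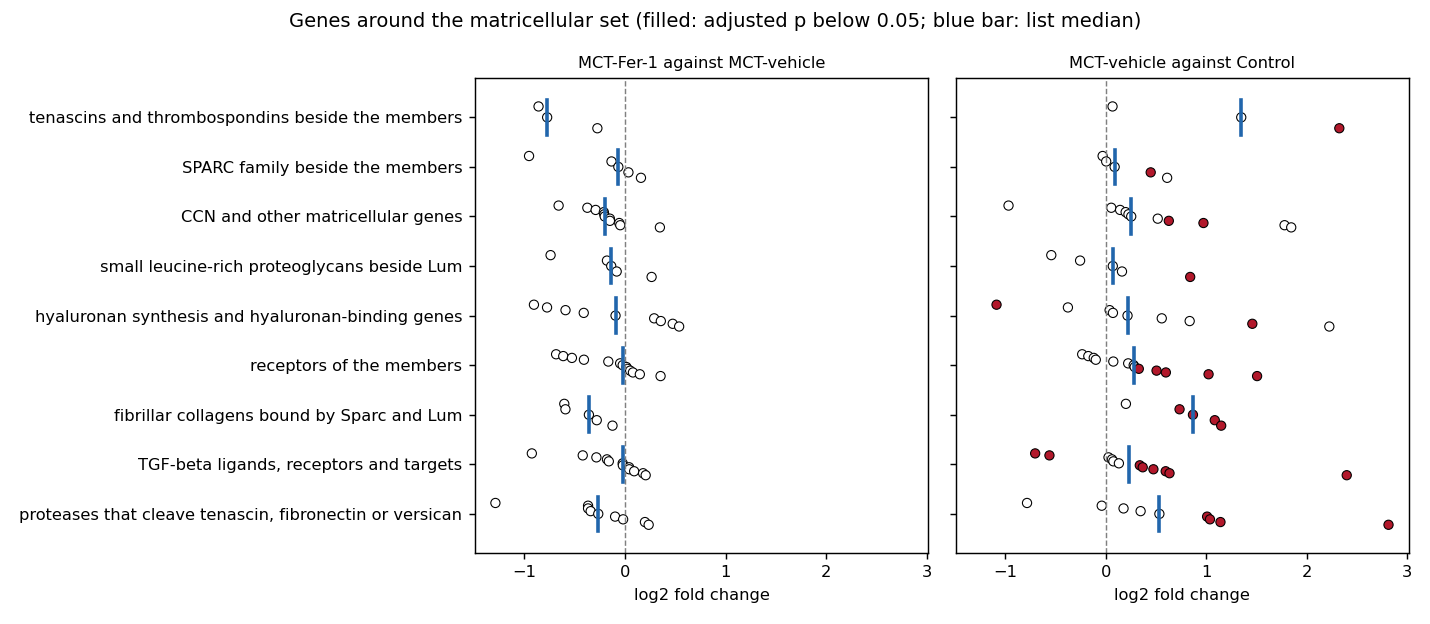
Log2 fold changes of the tested genes of 9 lists around the matricellular set in MCT-Fer-1 against MCT-vehicle (left) and in MCT-vehicle against Control (right), filled where the edgeR adjusted p is below 0.05, with a bar at each list's median. Filled points lie on the right panel only, where Adamts4 (2.81) is farthest from 0 among them.

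Genes whose log2 CPM followed a member most closely over the 12 libraries were sought for Tnc and Fn1 by Pearson's r, as a description. For Tnc they were Shmt2, a mitochondrial enzyme of serine and glycine metabolism (r = 0.96), Timp1, an inhibitor of matrix metalloproteases (0.95), and Cars, a cysteinyl-tRNA synthetase (0.94). After subtraction of each group's mean, r was 0.89 for Shmt2, 0.91 for Timp1 and 0.86 for Cars. Timp1 rose by 0.72 ± 0.22 in MCT-vehicle against Control (edgeR adjusted p = 0.0436), and Shmt2 by 0.59 ± 0.11 (0.00377). For Fn1 they included Aif1, a macrophage protein also called IBA1 (r = 0.97), and Ptafr, the receptor of platelet-activating factor (0.97). After the same subtraction r was 0.76 for Aif1 and 0.75 for Ptafr. The 12 libraries fall into groups, so that r over all of them carries the group difference, and libraries share their depth and scaling across genes.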

How the data were processed

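The authors deposited raw read counts per gene for 12 whole-lung libraries, per the file headers. No source used here names the aligner, the counter, the strand setting or the build. The deposited group mean counts (a signal column of the authors) were not used. Groups and replicate numbers came from the titles. Genes were kept by filterByExpr (15257 of 32883, with 99.9% of counts), scaled by TMM and fitted by edgeR's quasi-likelihood method (robust option, 1 coefficient per group, 9 residual degrees of freedom). Calls used a Benjamini-Hochberg adjusted p below 0.05 over all genes tested, and SE is the log2 fold change divided by the square root of F. Tools were edgeR 4.0.16, DESeq2 1.42.0 and limma 3.58.1 in R 4.3.3.

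The 10 members and the 9 pathway lists (89 symbols, 85 matched, 72 tested) and 12 marker lists (68, 66, 58) were chosen with earlier results of these data known. Unmatched symbols were not analysed here. Named were all members, the 4 genes of each pathway list with the smallest p in MCT-vehicle against Control (fewer where fewer were tested), the 3 genes most like Tnc and Fn1 by Pearson's r of log2 CPM (prior count 2), and markers beside a sum. Of the genes so chosen, 2 are not reported here. The test was checked on simulated counts with changes of 1.5-fold, 2-fold and 4-fold. In MCT-vehicle against Control it called 41.8%, 59.7% and 89.4% of them in the right direction. The shares were 35.8%, 73.1% and 95.5% in MCT-Fer-1 against MCT-vehicle, and 41.8%, 68.7% and 98.5% in MCT-Fer-1 against Control. In the simulation, changes of 1.5-fold were thus missed more often than called. Only 67, 67 and 66 genes were changed at these 3 sizes, whereas 2843 genes were called in MCT-vehicle against Control. The adjusted p depends on how many genes differ, so these shares may not hold for the comparisons with Control. Library totals and the floor of 3 counts cover counting error only. Every pair of libraries differed by more than sampling noise (chi-square per degree of freedom at least 10.4). Alternatives were other size factors, no filter, DESeq2, limma voom with quality weights, 2-group fits, the replicate number as a block, thinning to the smallest total, and leaving out each library or MCT-vehicle 2 and Control 4; their list counts without the last 2 libraries were added after seeing the data.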

Additional observations from a re-analysis of the deposited data

Results flagged for a closer look

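In 6 of 69 groups of 4 values examined (CPM of the 9 genes, count ratios and marker sums), 1 library lay so far from the other 3 that its gap passed Dixon's 95% limit, which chance alone passes in about 1 of 20 groups. Lum in MCT-vehicle was at 67.0 CPM in MCT-vehicle 2, the next library being at 24.8 CPM. The other flags are marker sums. Heart-muscle markers reached 43.2 CPM in MCT-Fer-1 2, 406 CPM in MCT-vehicle 2 and 259 CPM in Control 4. Adipose and lymph node markers reached 36.1 CPM in MCT-Fer-1 2 and 118 CPM in MCT-vehicle 2. MCT-Fer-1 2 was also the highest of its group for 7 of the 9 genes.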

How the results depend on the processing

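Over 21 alternatives the calls of Tnc, Fn1 and Thbs2 in MCT-vehicle against Control, and of Fn1 and Thbs2 in MCT-Fer-1 against Control, kept their direction and their side of the threshold. Of 567 recomputed log2 fold changes of the 9 genes, 530 kept both, 10 lost a call, 8 gained one and 19 changed sign. Sign changes were in genes near 0 without a call. Thbs1 in MCT-vehicle against Control was 0.0014 with upper quartile scaling, 0.073 with limma voom and 0.019 with the replicate block, and Sparcl1 was 0.026 with limma voom. With single libraries left out, Thbs1 ran over -0.17 to 0.23 and Sparcl1 over -0.10 to 0.11 in that comparison, Sparc over -0.067 to 0.033 and Sparcl1 over -0.16 to 0.0099 in MCT-Fer-1 against MCT-vehicle, and Sparcl1 over -0.16 to 0.034 in MCT-Fer-1 against Control. With single libraries left out, 4 to 7 of the 9 genes were called higher in MCT-vehicle against Control, 0 in MCT-Fer-1 against MCT-vehicle and 2 to 3 in MCT-Fer-1 against Control. In MCT-vehicle against Control, 2021 to 2860 of all genes were then called in either direction, against 2843. Genes called over the whole table in MCT-Fer-1 against MCT-vehicle numbered 0 to 41 without single libraries (41 without MCT-vehicle 3, 2 without MCT-Fer-1 4, 3 without Control 2), 1 with 2-group fits, 1 after thinning and 237 by DESeq2, against 0; unadjusted p was below 0.05 for 1835. DESeq2 called 1 of the 9 lower in that comparison (Tnc) and, in MCT-Fer-1 against Control, 1 lower (Thbs1) and 3 higher, Sparc beside the 2 of edgeR, while limma voom called 3 higher there, with Postn. Of all genes, DESeq2 called 1309 higher in MCT-Fer-1 against Control and limma voom 1340, against 1017 by edgeR. Genes called in MCT-Fer-1 against Control numbered 1646, 977 to 1714 without single libraries (977 without MCT-Fer-1 2, 995 without MCT-Fer-1 3, 978 without Control 4) and 978 without MCT-vehicle 2 and Control 4. Those 2 left out together gave 1675 genes in MCT-vehicle against Control, against 2843, and Sparcl1 at 0.015 in MCT-Fer-1 against MCT-vehicle. List counts of MCT-vehicle against Control then were 0 tenascins and thrombospondins higher, 1 small proteoglycan lower and 1 TGF-beta gene higher, and of MCT-Fer-1 against Control 0 SPARC relatives, 0 collagens and 0 TGF-beta genes higher. The cause was not tested, but fewer libraries entered these fits. The replicate numbers did not pair libraries (r of same-numbered deviations -0.063 to 0.10), and a fit with replicate number as block gave 6, 0 and 2 of the 9 genes called higher and 2812, 0 and 1676 genes in all, in MCT-vehicle against Control, MCT-Fer-1 against MCT-vehicle and MCT-Fer-1 against Control. Depth limits Tnn, Comp, Ccn4 and Has2, whose Control values are near the floor, and Marco, which is at 0 in Control.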
